A study of Mus musculus with 42 samples.

Results

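Etv1, Etv4, Pou3f1, Runx1, Mecom, Bmp5, Nos1 and Zeb2 mark columns and pools of spinal motor neurons, and HOX binding around these 8 genes was examined in mouse chromatin immunoprecipitation sequencing (ChIP-seq) data. The genes were chosen by name as column and pool markers among 21938 protein-coding genes, and each was given a window of its GENCODE gene span plus 50 kb on either side. The 8 windows covered 2169 kb of the mm10 genome. They held 1737 of the 1087512 binding events in 21 deposited lists. Events within 100 bp of each other were merged across the lists into 534 sites, of 377270 in the genome.

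Motor neurons of the spinal cord are sorted into columns by the body part they innervate, and limb-level columns are further divided into pools, each serving a single muscle. HOX transcription factors set this order along the rostrocaudal axis: HOXC6 and HOXC8 act at brachial level, HOXC9 at thoracic level and HOXC10 at lumbar level. The ETS factors Etv1 and Etv4, the POU factor Pou3f1 and the Runt factor Runx1 mark pools. The zinc-finger gene Mecom marks the medial column, whose cells serve the axial muscles. The ligand gene Bmp5, the nitric oxide synthase gene Nos1 and the zinc-finger homeobox gene Zeb2 mark thoracic preganglionic neurons.

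The cells were derived from Ainv15 mouse embryonic stem cells, each line carrying 1 tagged Hox transgene that doxycycline (Dox) turns on, and were grown as embryoid bodies (EBs). For day 3 and day 4 they received retinoic acid (RA) and a smoothened agonist (SAG) from day 0 and Dox from day 2, for 24 h or 48 h. For the EB lists they received Dox for 12 h without RA and SAG. The 42 samples gave 7 lists of full-length factors at day 3 (the 4 HOXC factors above, HOXC13, and the HOXC9 paralogs HOXA9 and HOXD9), 4 of HOXC10 and HOXC13 chimeras at day 3, 3 of HOXC6, HOXC9 and HOXC10 at day 4, 2 of HOXC6 and HOXC9 in EBs, 3 of MEIS and 2 of PBX. All of these cells expressed the factor from the transgene, and by 48 h of Dox the cultures mixed motor neurons with interneurons. Most proteins had an N-terminal Flag tag. HOXA9, HOXD9 and HOXC13 each had a second library from an HA-tagged line, the first day 3 HOXC10 library came from a V5-tagged line with an antibody to HOXC10, and the MEIS libraries came from V5-tagged iHoxc6, iHoxc9 and iHoxc10 lines. The 2 remaining samples were controls, an anti-Flag library and an input library, with no list of their own.

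The libraries held between 5.04 and 32.9 M aligned reads. Each list pooled the libraries of its condition, so a gene had 1 count per condition, no spread between replicates could be computed, and no p-value is given. The intervals below are 95% Wilson intervals on shares of sites and cover counting error only. The lists differed in length from 17900 events for day 3 HOXC6 to 115879 for day 3 HOXC13 and 128388 for HOXC9 in EBs. One of the 3 day 3 HOXC10 libraries held 5.04 M reads, and the signal fractions of the 3 ran from 0.017 to 0.161. Its list could not be separated by library. The absence of an event means that none was called, not that the factor was not bound.

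A selection of the sites of best rank in the HOXC9 list or in the lists of the limb-level factors (HOXC6, HOXC8 and HOXC10), and of the sites with all 7 full-length factors, is shown first because the gene-by-gene results below refer to them. Each sequence runs 50 bp to either side of the site centre on the plus strand of mm10 (GRCm38), with its distance in kb from the 5′ end of the gene, positive in the direction of transcription. Capitals mark a match on either strand to any of 4 words. The first is TAAT, the core preferred by central HOX factors such as HOXC6 and HOXC8. The next are TTTAT and then TTTAC, both cores of posterior factors. The last is TGATTTAT, which as the joint site of a PBX protein and a posterior HOX factor, contains TTTAT.
Etv1 4.16 kb, chr12:38783486-38783586: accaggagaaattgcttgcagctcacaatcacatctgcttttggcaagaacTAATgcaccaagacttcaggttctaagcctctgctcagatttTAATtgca
Etv1 41.4 kb, chr12:38820727-38820827: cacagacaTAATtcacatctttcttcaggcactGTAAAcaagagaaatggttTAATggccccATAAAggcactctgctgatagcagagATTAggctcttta
Etv4 58.4 kb, chr11:101726895-101726995: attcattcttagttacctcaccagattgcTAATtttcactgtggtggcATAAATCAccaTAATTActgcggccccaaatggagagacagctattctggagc
Pou3f1 -41.0 kb, chr4:124615718-124615818: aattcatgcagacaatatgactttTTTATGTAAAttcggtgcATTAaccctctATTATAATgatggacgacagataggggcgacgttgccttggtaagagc
Runx1 106 kb, chr16:92719633-92719733: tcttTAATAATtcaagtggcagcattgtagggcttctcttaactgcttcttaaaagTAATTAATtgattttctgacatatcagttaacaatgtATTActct
Mecom 497 kb, chr3:30050996-30051096: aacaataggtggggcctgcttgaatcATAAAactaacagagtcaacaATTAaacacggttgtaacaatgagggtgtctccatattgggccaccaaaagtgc
Mecom 530 kb, chr3:30018271-30018371: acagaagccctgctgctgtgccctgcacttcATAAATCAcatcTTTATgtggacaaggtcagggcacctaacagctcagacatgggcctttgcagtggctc
Bmp5 135 kb, chr9:75910360-75910460: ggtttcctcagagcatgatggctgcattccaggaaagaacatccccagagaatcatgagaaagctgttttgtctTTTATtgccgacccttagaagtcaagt
Nos1 131 kb, chr5:117912445-117912545: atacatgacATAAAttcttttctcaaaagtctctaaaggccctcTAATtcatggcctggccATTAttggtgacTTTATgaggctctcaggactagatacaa
Zeb2 116 kb, chr2:45001403-45001503: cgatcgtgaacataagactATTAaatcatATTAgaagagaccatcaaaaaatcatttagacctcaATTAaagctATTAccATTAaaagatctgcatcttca

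HOXC9 and the limb-level factors both had events near most of the 8 genes at day 3, and Zeb2 and Mecom carried the most. HOXC9 had 122 events at the members, in all 8 windows. HOXC8 had 76 in all 8, HOXC10 had 54 in 6, and HOXC6 had 24 in 7. The counts moved with list length: within the top 10000 events of each list the members held 21 events of HOXC9, 21 of HOXC10, 17 of HOXC8 and 15 of HOXC6.

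**Figure D1:**
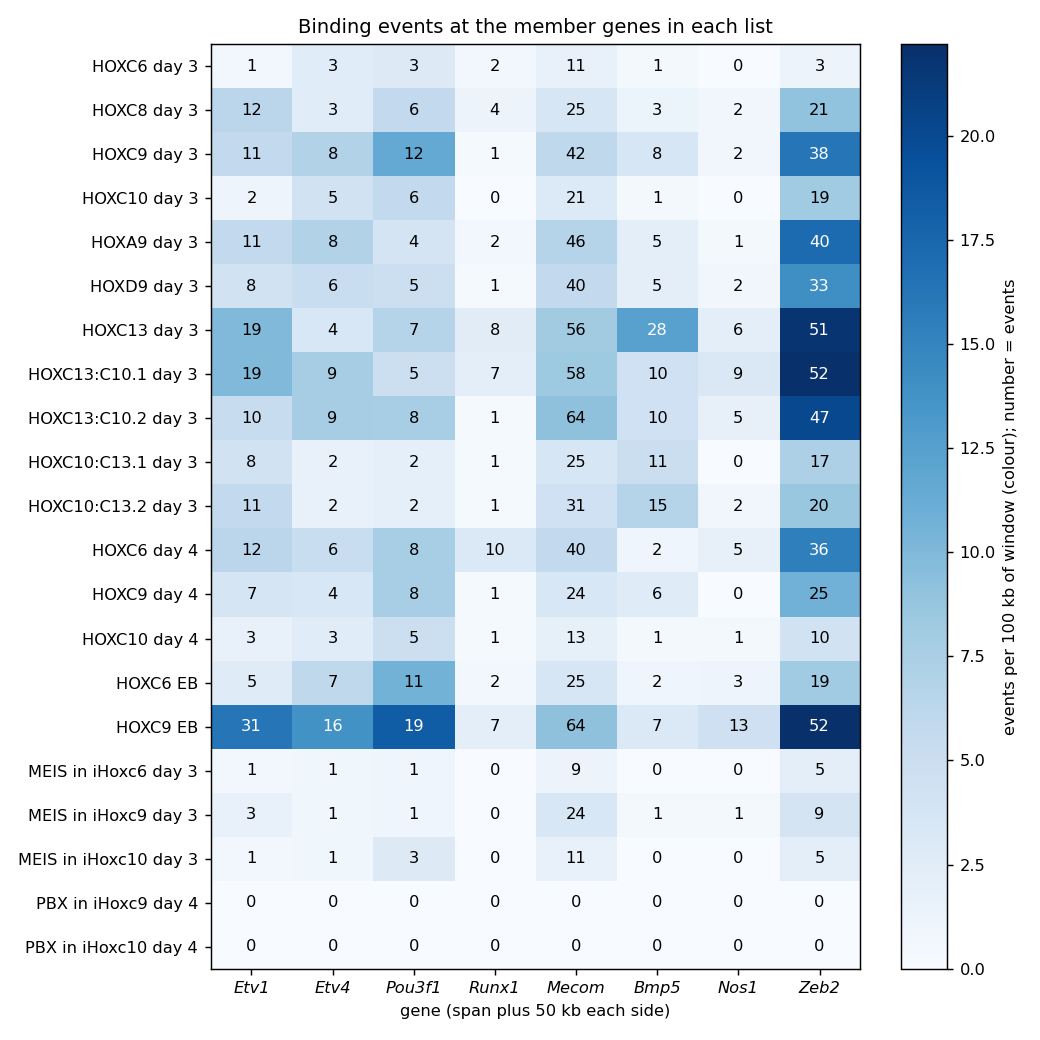
Number of binding events (printed) at each member gene (columns) in each of the 21 lists (rows); the colour gives events per 100 kb of the gene's window. Zeb2 had 38 events of HOXC9 and 3 of HOXC6 at day 3, Bmp5 had 28 events of HOXC13 against 8 of HOXC9, and both PBX rows are at 0.

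Of the 534 member sites, 155 held a day 3 event of HOXC6, HOXC8, HOXC9 or HOXC10. HOXC9 alone was called at 58 of the 155 (37.4%, interval 30.2 to 45.3), against 40.9% over the genome. Limb-level factors alone were called at 36 (23.2%, interval 17.3 to 30.5), against 22.6% over the genome. Both were called at 61 (39.4%, interval 32.0 to 47.2), against 36.5%. All 3 shares were thus near the genome's, and the intervals of the members include it. These shares cannot be read as a preference, as they moved with list length. With all 4 lists at 17900 events, HOXC9 alone was at 7 of 60 sites (11.7%) and limb-level factors alone at 30 (50.0%). Over the genome these were 16.1% and 55.7%. Equal length does not make the classes even, because the limb-level class joins 3 lists and the HOXC9 class rests on its own list alone. In the top 10000 events the shares were 16.2% and 45.9%, against 17.1% and 56.6%.

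With full lists, of which HOXC8 had the longest of the limb-level factors (44608 events), HOXC8 was at most of the limb-level sites. An event of HOXC8 was at 30 of the 36 sites without HOXC9 (83.3%, against 80.9% over the genome), HOXC10 was at 6 and HOXC6 at 5. Over the genome HOXC10 was at 4508 and HOXC6 at 4996 of 20763 such sites. With all 4 lists at 17900 events HOXC10 came first, at 38 of the 60 member sites, with HOXC8 at 31 and HOXC6 at 24. Over the genome HOXC10 was then at 17534 of 36424 sites, HOXC8 at 16670 and HOXC6 at 17434. In the full lists with HOXC8 left out of the limb-level set, the share of limb-level sites without HOXC9 fell to 8.46%. Of the 58 sites with HOXC9 alone, 24 (41.4%, against 39.3% over the genome) also held its paralogs HOXA9 or HOXD9, and 22 held HOXC13 (37.9%, against 36.8%). Sites with all 4 HOXC factors numbered 16 of 155, against 8442 of 91851 over the genome, and 7 of the 16 lay at Mecom and 3 each at Etv4 and Pou3f1.

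**Figure D2:**
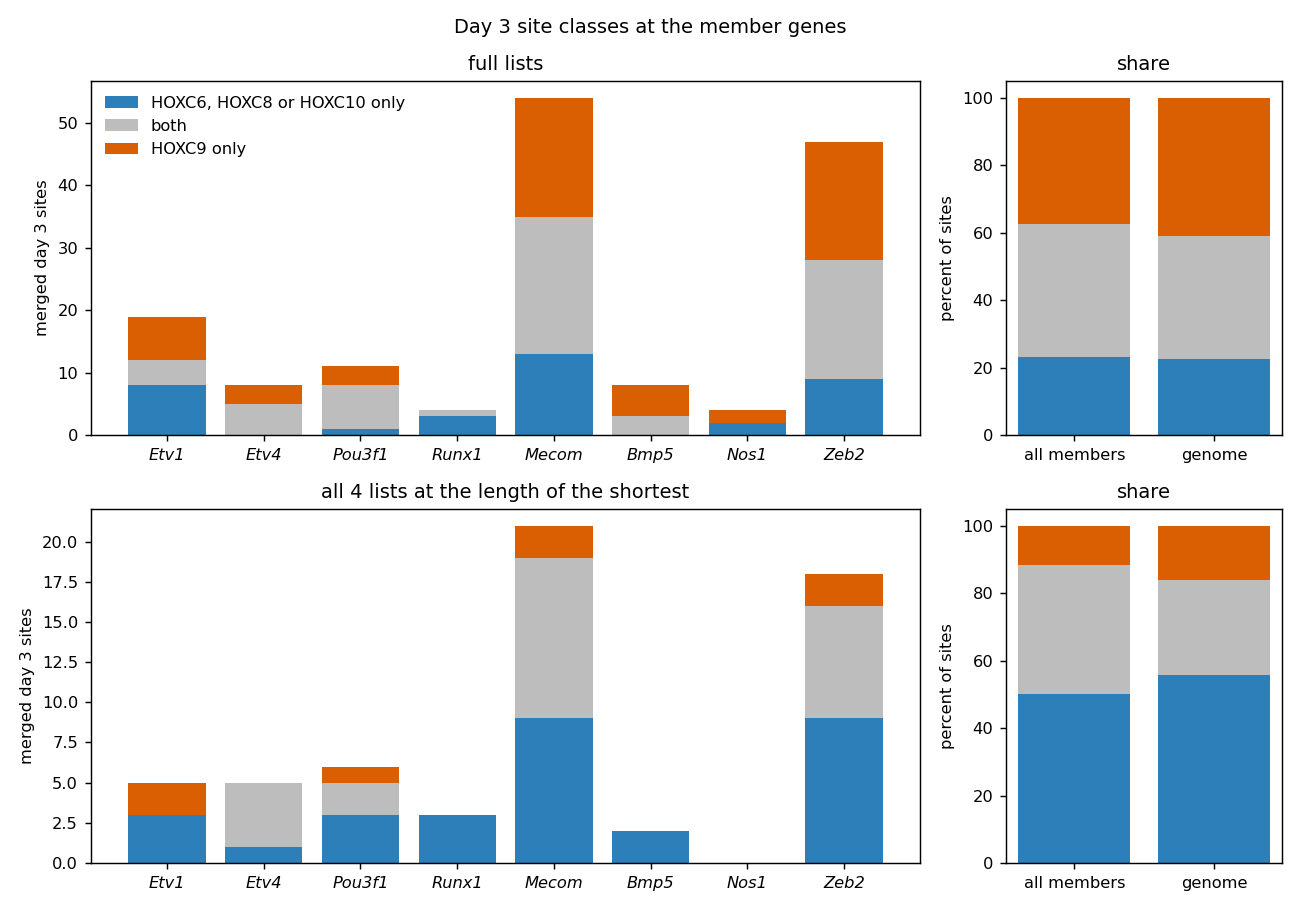
Merged day 3 sites of HOXC6, HOXC8, HOXC9 or HOXC10 at each gene (left, number of sites) and their shares over all members and the genome (right, percent), for the full lists (top) and with all 4 lists at the 17900 events of the shortest (bottom). HOXC9 alone took 37.4% of member sites with full lists and 11.7% with lists of equal length.

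Among the pool genes, Etv1 had nearly equal numbers of HOXC8 and HOXC9 events. The gene lies at chr12:38779380-38870484 on the plus strand. Its 191 kb window held 12 events of HOXC8 and 11 of HOXC9 at day 3, with 2 of HOXC10 and 1 of HOXC6. The 19 day 3 sites comprised 7 with HOXC9 alone, 8 with limb-level factors alone and 4 with both, and all 8 of the limb-level sites held HOXC8. The density of HOXC8 events was above that of 98.7% of protein-coding genes, and that of HOXC9 above 94.3%. The best limb-level site lay 4.16 kb into the gene in an annotated exon, 27 bp from an Etv1 transcript start. It ranked 7457 of 44608 for HOXC8, with an estimated 179 ChIP reads against 2.50 control reads, and was called again for HOXC6 at day 4. HOXC9, HOXC10 and HOXC13 had no event there, and its sequence above holds TAAT on the plus strand but neither TTTAT nor TTTAC. The best HOXC9 site, 41.4 kb into the gene, ranked 14514 of 74085 and also held HOXC9 at day 4 and in EBs, and HOXC6 at day 4. No Etv1 event of HOXC9 was among the top 10000, while 2 of HOXC8 and 1 of HOXC6 were.

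Etv4 had no day 3 site of the 4 factors inside its 15.6 kb span (chr11:101769742-101785371, minus strand). All 8 sites lay in the flanks, 3 upstream and 5 downstream, with 3 events of HOXC6, 3 of HOXC8, 8 of HOXC9 and 5 of HOXC10. The strongest was 58.4 kb from the 5′ end, beyond the 3′ end of Etv4, and 5974 bp from the nearest transcript start, that of the helicase gene Dhx8. It ranked 89 of 17900 for HOXC6, 240 of 26873 for HOXC10, 691 of 44608 for HOXC8 and 1066 of 74085 for HOXC9. The site was shared by 18 of the 21 lists, including both EB lists and all 3 MEIS lists. HOXC13 was the only full-length factor without an event there. The estimated ChIP reads at day 3 were 724 for HOXC6, 811 for HOXC8, 1167 for HOXC9 and 602 for HOXC10, against 5.60 to 8.10 control reads. Its sequence carries TGATTTAT on the minus strand and TAAT 3 times. A second site, 24.1 kb upstream of Etv4, held events of all 7 full-length factors, and ranked 2137 of 115879 for HOXC13.

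Pou3f1, a short gene of 3.85 kb (chr4:124656807-124660655, plus strand), likewise had its 11 day 3 sites in the flanks, 4 upstream and 7 downstream. The events were 3 of HOXC6, 6 of HOXC8, 12 of HOXC9 and 6 of HOXC10, and 7 of the 11 sites held both HOXC9 and a limb-level factor. Site -41.0 kb was best in the HOXC9 list and in the limb-level lists, and was also the 1 site of Pou3f1 with all 7 full-length factors. It was in 19 of the 21 lists, the most of any member site, and ranked 436 of 26873 for HOXC10, 1298 of 17900 for HOXC6, 1834 of 44608 for HOXC8 and 2110 of 74085 for HOXC9. At day 4 it ranked 185 for HOXC10, 259 for HOXC6 and 409 for HOXC9. The nearest transcript start, 4965 bp away, belongs to 3100002H09Rik and not to Pou3f1.

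Runx1 (chr16:92601466-92826149, minus strand) had few events of HOXC9 and no day 3 event of HOXC10, of which the median protein-coding gene also had none. Its 325 kb window held 2 events of HOXC6, 4 of HOXC8, 1 of HOXC9 and none of HOXC10 at day 3, and the HOXC9 density was above that of 29.7% of genes. The densities of HOXC6 and HOXC8 were above those of 60.0% and 61.7% of genes, where the median density was 0 for HOXC6 and 0.905 events per 100 kb for HOXC8. Of its 4 day 3 sites, 3 had limb-level factors alone and 1 had both. The best limb-level site, in an intron 106 kb from the 5′ end, held HOXC6 (rank 7503 of 17900) and HOXC8 (rank 16523 of 44608) at day 3 and HOXC6 at day 4, and no other list had an event there. Its sequence holds TAAT 6 times over both strands and no TTTAT. The 1 HOXC9 site ranked 58939 of 74085. At day 4 HOXC6 had 10 events at Runx1, HOXC9 1 and HOXC10 1, but none of these was in the top 10000 of its list.

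Mecom, the medial column gene (chr3:29951296-30548008, minus strand), has the longest window (697 kb) and held 11 events of HOXC6, 25 of HOXC8, 42 of HOXC9 and 21 of HOXC10. All 54 of its day 3 sites lay within the gene span, and 2 of them were in annotated exons. The classes were 19 with HOXC9 alone, 13 with limb-level factors alone and 22 with both. With the 4 lists at equal length these became 2, 9 and 10, so the direction between HOXC9 alone and limb-level alone turned. At 3 sites there were events of all 7 full-length factors. The best of Mecom for HOXC9, in an exon 497 kb from the 5′ end, ranked 1382 of 74085 for HOXC9 and 521 of 115879 for HOXC13 but 25939 of 26873 for HOXC10. The site 530 kb from the 5′ end was in 17 lists. Its highest estimated reads were those of the chimeras HOXC13:C10.1 (1123) and HOXC13:C10.2 (1255), against 106 for HOXC10 and 70.8 for HOXC13. These reads were compared as given, without scaling between lists. The library signal fractions were 0.335 to 0.527 for HOXC13:C10.1 and 0.32 to 0.392 for HOXC13:C10.2. For HOXC10 they were 0.017 to 0.161, and for HOXC13 0.327 to 0.375. The site holds TGATTTAT and, besides the copy inside it, 1 more TTTAT.

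**Figure D3:**
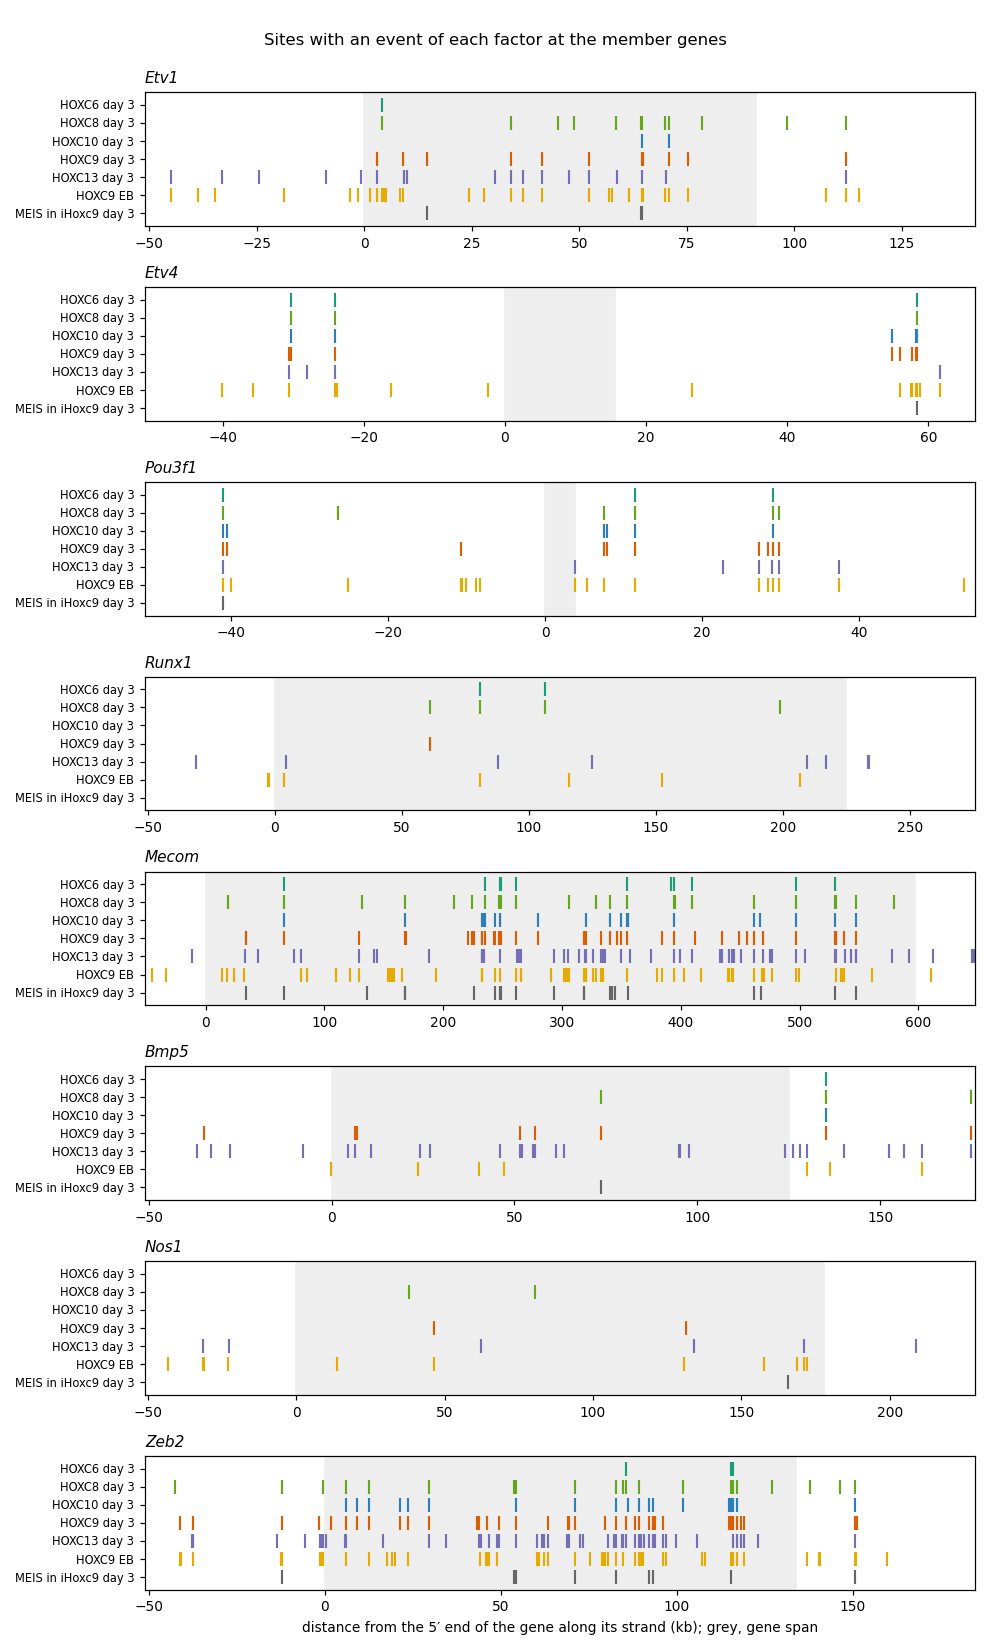
Position of the sites with an event of each of 7 factors or lists (rows) along each gene, as distance in kb from the 5′ end of the gene; grey marks the gene span. Sites of Etv4 and Pou3f1 lay in the flanks, while all 54 day 3 sites of the 4 HOXC factors at Mecom lay in the gene.

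The preganglionic genes differed among themselves in density. At day 3 the HOXC9 density was above that of 99.8% of genes at Zeb2, 83.9% at Bmp5 and 33.2% at Nos1. Bmp5 (chr9:75775364-75900310, plus strand) had 8 events of HOXC9 at day 3 against 1 of HOXC6, 3 of HOXC8 and 1 of HOXC10, and none of its 8 sites had a limb-level factor alone. None of the HOXC9 events was in the top 10000, however: the best ranked 23666 of 74085. With the 4 lists at equal length Bmp5 kept 2 sites, both with limb-level factors alone. The site 135 kb from the 5′ end, past the end of the gene, held HOXC6, HOXC8, HOXC9 and HOXC10 at day 3 and HOXC6, HOXC9 and HOXC10 at day 4. Nos1 (chr5:117781032-117958840, plus strand) had 2 events of HOXC8 and 2 of HOXC9 at 4 separate sites and none of HOXC6 or HOXC10, whose median density over all genes was also 0. Its best HOXC9 site, 131 kb into the gene, ranked 71440 of 74085 with an estimated 41.6 ChIP reads.

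Zeb2 (chr2:44983632-45117395, minus strand) had the highest HOXC9 density of the 8 genes. Its 234 kb window held 3 events of HOXC6, 21 of HOXC8, 38 of HOXC9 and 19 of HOXC10, and HOXC9 density was above that of 99.8% of protein-coding genes. The density of HOXC8 and of HOXC10 was above 99.6% each, and that of HOXC6 above 84.9%. At Pou3f1, Etv4 and Mecom the HOXC9 density was above that of 99.3%, 96.6% and 95.1% of genes. The 47 day 3 sites of Zeb2 comprised 19 with HOXC9 alone, 9 with limb-level factors alone and 19 with both. Of the 9 limb-level sites, 8 held HOXC8. With equal lists the counts were 2, 9 and 7, so here too the direction turned. Of the 47 full-list sites, 6 lay within 1 kb of a Zeb2 transcript start. HOXC9 was at 5 of these 6, and at 38 of the 47. The site 116 kb from the 5′ end held all 7 full-length factors, and ranked 2675 of 44608 for HOXC8.

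Over the 8 genes, HOXC9-only sites outnumbered limb-only sites at Etv4, Pou3f1, Mecom, Bmp5 and Zeb2, limb-only sites were more at Etv1 and Runx1, and Nos1 had 2 of each. With the 4 lists at equal length, where the limb-level class still joined 3 lists, limb-only sites were more at all of these 5 genes. With 100 kb flanks Etv1 had 2 more HOXC9-only than limb-only sites. Over all protein-coding genes, 34.8% had more HOXC9-only sites, 28.3% more limb-only sites and 36.9% equal numbers. Among 22 other motor neuron genes, which include the limb column genes Foxp1 and Aldh1a2 and the LIM homeobox genes Lhx1, Lhx3, Isl1 and Isl2, 9 had more HOXC9-only sites, 10 more limb-only sites and 3 equal numbers. The HOXC9 events at these 22 genes ranged from 2 to 88 with a median of 9.5. Their 364 day 3 sites had HOXC9 alone at 27.5%, limb-level factors alone at 25.0% and both at 47.5%.

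HOXC13 and the HOX9 paralogs were compared next. At day 3 the members held 179 events of HOXC13, 117 of HOXA9 and 100 of HOXD9. Bmp5 carried 28 events of HOXC13, a density above that of 98.3% of genes, against 5 each of HOXA9 and HOXD9. At 25 of the 35 Bmp5 sites of the 7 full-length factors HOXC13 was the only factor (71.4%), against 38.6% over all members and 42.1% over the genome. Etv4 showed the other order, with 4 events of HOXC13, 8 of HOXC9, 8 of HOXA9 and 6 of HOXD9. At Zeb2 HOXC13 had 51 events, HOXA9 40 and HOXD9 33, and at Mecom 56, 46 and 40. Etv1 held 19 of HOXC13, 11 of HOXA9 and 8 of HOXD9, Pou3f1 held 7, 4 and 5, Runx1 held 8, 2 and 1, and Nos1 held 6, 1 and 2. The HOXC13 list was the longest of the 3, with 115879 events against 62916 and 56400. In the top 10000 events the members held 12 of HOXC13, 19 of HOXA9 and 22 of HOXD9. At Zeb2 the order turned, with 1 of HOXC13, 7 of HOXA9 and 10 of HOXD9, at Mecom each factor had 6, and at Bmp5 they had 2, 1 and 1.

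Binding at the members was then followed from day 3 to day 4, that is from 24 h to 48 h of Dox. The stages also differed in the control used for calling. The lists of HOXC6, HOXC9 and HOXC10 had 20.6 M control reads at day 3 and 4.72 M at day 4. In EBs, the lists of HOXC6 and HOXC9 had 10.5 M. The effect of the control on the stage comparisons was not tested. Of the 75 day 4 HOXC9 sites, 65 held a day 3 HOXC9 event (86.7%, interval 77.2 to 92.6), against 82.3% over the genome. Conversely, 65 of the 119 day 3 HOXC9 sites held a day 4 event (54.6%, against 49.2%), the day 3 list being the longer. For HOXC10, 27 of 37 day 4 sites held a day 3 event (73.0%, interval 57.0 to 84.6, against 57.6%). In the other direction, 27 of 54 day 3 HOXC10 sites held a day 4 event (50.0%, against 47.7%). For HOXC6, 23 of 24 day 3 sites held a day 4 event (95.8%, against 92.7%). Of the 116 day 4 HOXC6 sites, 23 held a day 3 event (19.8%, interval 13.6 to 28.0, against 24.7%). The HOXC6 list grew from 17900 to 69297 events between the days. With both lists at 17900 events, 18 of 21 day 4 member sites held a day 3 event (85.7%, against 72.4% over the genome). For HOXC9 the equal-length share was 66.7%, against 65.4%, and for HOXC10 70.3%, against 53.3%.

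In the full lists HOXC6 had more events at day 4 than at day 3 at all 8 genes, in a list of 69297 against 17900 events. Zeb2 went from 3 to 36 events, Mecom from 11 to 40, Etv1 from 1 to 12 and Runx1 from 2 to 10. In the top 10000 there was no such gain: the members held 15 events at each day, with Zeb2 at 3 and 2, Mecom at 7 and 9, Etv1 at 1 and 0 and Runx1 at 2 and 0. Of the 34 day 4 HOXC6 sites at Zeb2, 3 had a day 3 HOXC6 event (8.82%, interval 3.05 to 23.0). HOXC9 had fewer events at day 4 than at day 3 at 7 of the 8 genes and equally few, 1 at each day, at Runx1. Counts went from 38 to 25 at Zeb2, 42 to 24 at Mecom, 12 to 8 at Pou3f1, 11 to 7 at Etv1, 8 to 4 at Etv4, 8 to 6 at Bmp5 and 2 to 0 at Nos1, while the HOXC9 list went from 74085 to 44024 events. HOXC10 went from 21 to 13 events at Mecom and from 19 to 10 at Zeb2, in lists of 26873 and 22027 events. In the top 10000, HOXC10 had 21 member events at each day, with 9 and 8 at Mecom and 6 at each day at Zeb2. HOXC9 had 21 and 15, with 7 at each day at Mecom and 7 and 3 at Zeb2.

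**Figure D4:**
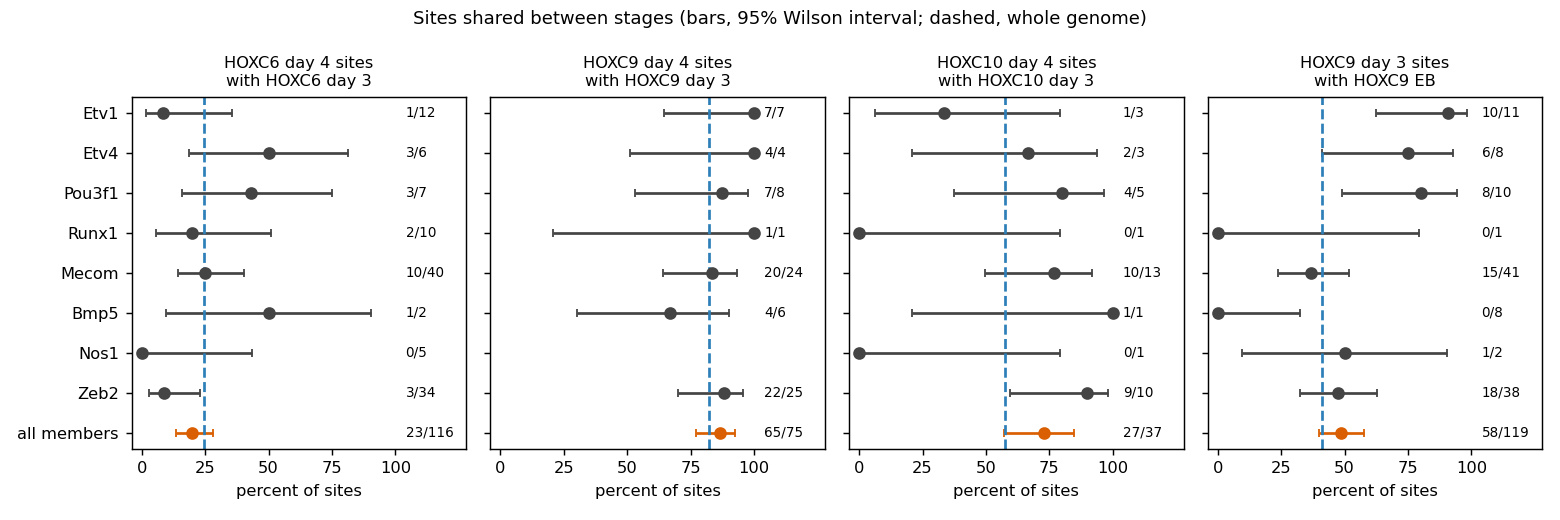
Percent of sites of one stage that hold an event of the same factor at another stage, by gene; points carry 95% Wilson intervals, the fraction is the number of sites, and the dashed line is the whole genome. The right panel shows 10 of 11 day 3 HOXC9 sites at Etv1 with an EB event, and 0 of 8 at Bmp5.

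In EBs that had not received RA and SAG, the same factors were called at some of the same sites. Of the 119 day 3 HOXC9 sites, 58 held a HOXC9 event in EBs (48.7%, interval 39.9 to 57.6), against 41.1% over the genome. The shared sites were unevenly placed. At Etv1 they were 10 of 11 (90.9%, interval 62.3 to 98.4), at Pou3f1 8 of 10 and at Etv4 6 of 8. At Bmp5 they were 0 of 8 (interval 0 to 32.4), although HOXC9 had 7 EB events elsewhere in the Bmp5 window, and at Mecom 15 of 41. These genes were singled out after their values were seen. Conversely, 58 of 200 EB sites held a day 3 event (29.0%, against 23.5%). HOXC9 in EBs had 31 events at Etv1, 16 at Etv4, 19 at Pou3f1 and 13 at Nos1, in the longest list of the series. These densities were above those of 98.7%, 97.4%, 99.3% and 60.9% of genes. Mecom held 64, Zeb2 52, Runx1 7 and Bmp5 7, with densities above those of 89.9%, 99.6%, 32.0% and 44.0% of genes. For HOXC6, 7 of 24 day 3 sites held an EB event (29.2%, interval 14.9 to 49.2, against 19.6%) and 7 of 73 EB sites a day 3 event (9.59%, against 7.81%). With the EB and day 3 lists at equal length, the share of day 3 sites with an EB event was 35.3% for HOXC9 (against 28.2%) and 16.7% for HOXC6 (4 of 24, against 1775 of 17440 over the genome).

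Chimeras joined the N-terminus of HOXC10 or HOXC13, named first, to the homeodomain and C-terminus of the other, named last. Each was made in a pair of forms that differ in where the proteins were joined, with C10.2 and C13.2 taking a conserved stretch before the homeodomain from the protein named last. With full lists, HOXC10:C13.1 sites at the members held a HOXC13 event at 46 of 66 (69.7%, interval 57.8 to 79.4), against 49.9% over the genome, and a HOXC10 event at 16 (24.2%, interval 15.5 to 35.8), against 10.6%. HOXC10:C13.2 sites held HOXC13 at 55 of 84 (65.5%, interval 54.8 to 74.8, against 47.1%) and HOXC10 at 14 (16.7%, against 8.17%). For HOXC13:C10.1 the shares were 41.2% with HOXC13 (66 of 160, against 37.5%) and 26.9% with HOXC10 (against 21.4%). For HOXC13:C10.2 they were 37.0% with HOXC13 (54 of 146, against 29.2%) and 34.9% with HOXC10 (against 30.3%).

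These shares changed with the length of the lists. With the chimera, HOXC13 and HOXC10 lists at 26873 events each, HOXC13:C10.2 sites at the members held HOXC10 at 34 of 43 (79.1%, interval 64.8 to 88.6) and HOXC13 at 11 (25.6%, interval 14.9 to 40.2). Over the genome these shares were 67.9% and 19.7%. HOXC13:C10.1 sites held HOXC10 at 24 of 46 (52.2%, against 41.0% over the genome) and HOXC13 at 17 (37.0%, against 29.3%). At this length HOXC10:C13.1 held more HOXC10 than HOXC13 at the members, though not over the genome. It held HOXC13 at 3 of 27 sites (11.1%, interval 3.85 to 28.1) and HOXC10 at 6 (22.2%, interval 10.6 to 40.8). HOXC10:C13.2 held HOXC13 at 5 and HOXC10 at 4 of 27. Over the genome at that length, HOXC10:C13.1 held HOXC13 at 16.7% of 26694 sites and HOXC10 at 2722 of them, and HOXC10:C13.2 held them at 19.9% and 7.89%.

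**Figure D5:**
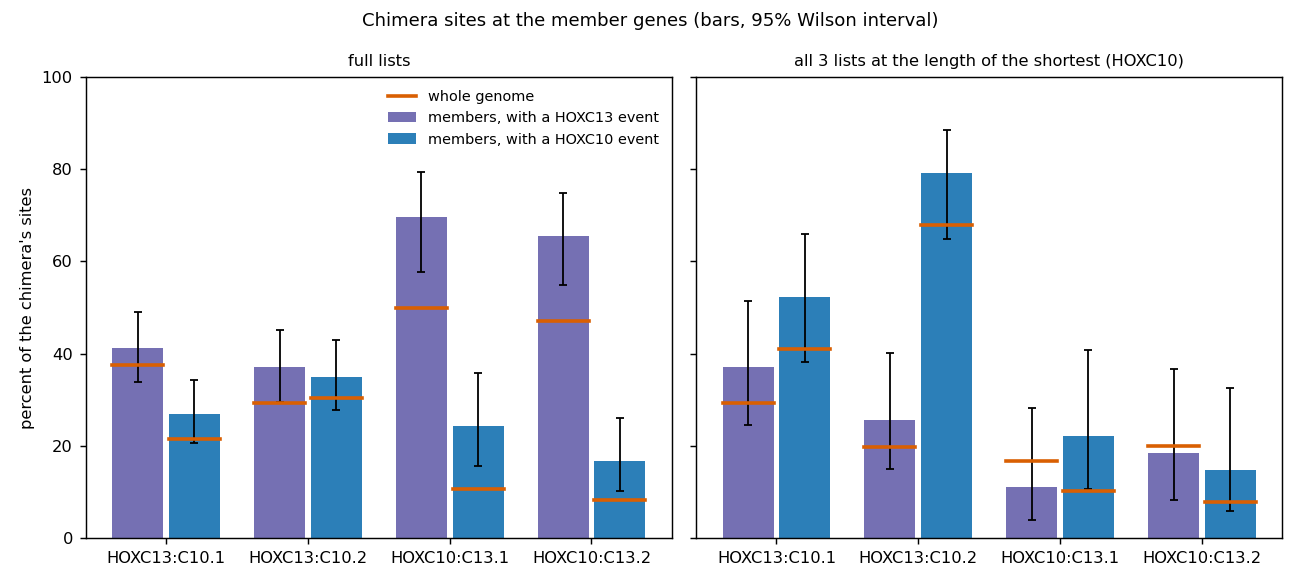
Percent of the sites of each chimera at the members that hold a HOXC13 or a HOXC10 event (bars, with 95% Wilson intervals) and the genome value (orange line), for full lists (left) and with all 3 lists at the 26873 events of the shortest (right). With lists of equal length HOXC13:C10.2 sites held HOXC10 at 79.1%, against 67.9% over the genome. The HOXC10:C13 intervals of HOXC13 and HOXC10 overlapped.

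By gene, Bmp5 held 11 and 15 events of the HOXC10:C13 chimeras, 28 of HOXC13 and 1 of HOXC10, and both HOXC13:C10 chimeras had 10. Of the 11 HOXC10:C13.1 sites at Bmp5, 6 held HOXC13 (54.5%, against 49.9% over the genome). HOXC10 was at 0 of the 11, which allows a share of up to 25.9%, against 10.6% over the genome. Etv4 and Pou3f1 held 2 events of each HOXC10:C13 chimera, against 9 of each HOXC13:C10 chimera at Etv4, and 5 and 8 at Pou3f1. The lists of HOXC13:C10.1, HOXC13:C10.2, HOXC10:C13.1 and HOXC10:C13.2 held 99311, 87315, 61482 and 86293 events. At Zeb2 the HOXC13:C10 forms had 52 and 47 events and the HOXC10:C13 forms 17 and 20. These densities were above those of 99.7%, 99.7%, 98.7% and 98.0% of genes. At Mecom the counts were 58 and 64 against 25 and 31, with densities above those of 95.9%, 97.1%, 90.4% and 88.2% of genes. Etv1 held 19 and 10 against 8 and 11, Runx1 7 and 1 against 1 and 1, and Nos1 9 and 5 against 0 and 2.

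MEIS and PBX are cofactors that bind DNA together with HOX proteins. MEIS events were at 46 member sites, 26 of them at Mecom and 11 at Zeb2. Etv1 and Pou3f1 had 3 each, Etv4, Bmp5 and Nos1 1 each and Runx1 none. Of the 119 HOXC9 sites, 27 held MEIS in iHoxc9 cells (22.7%, interval 16.1 to 31.0, against 20.9%), 18 held it in iHoxc10 cells (15.1%, interval 9.79 to 22.6, against 11.2%) and 15 in iHoxc6 cells (12.6%, interval 7.79 to 19.8, against 7.93%). The iHoxc9 and iHoxc10 values differed by 7.56 percentage points with an interval of -2.44 to 17.4, and by 4.20 at equal length of the MEIS lists. The interval takes the shares as independent samples, although both come from the same 119 sites. Each MEIS list rested on 1 library.

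MEIS events lay mostly at sites shared by HOXC9 and the limb-level factors. In iHoxc9 cells MEIS was at 23 of 61 shared sites (37.7%, interval 26.6 to 50.3), 4 of 58 with HOXC9 alone (6.90%, interval 2.71 to 16.4) and 3 of 36 with limb-level factors alone (8.33%, interval 2.87 to 21.8). Over the genome the same shares were 35.2%, 8.10% and 7.01%. All 3 lines shared 12 of the 46 member MEIS sites, a count given without a genome share. Among them were the Etv4 site at 58.4 kb and the Mecom site at 530 kb, which hold TGATTTAT. The Pou3f1 site at -41.0 kb was also among them and does not hold TGATTTAT. TGATTTAT was in 10.3% of the member MEIS sites of iHoxc9 cells, against 10.9% over the genome. At 10 of the 46 MEIS sites none of the 4 HOXC factors had a day 3 event, and 8 of those 10 were at Mecom, which held 26 of the 46. In iHoxc9 cells taken alone such sites were 9 of 39 at the members, against 5287 of 21594 over the genome. Both PBX lists, which hold 1165 and 848 events in all with signal fractions of 0.009 and 0.008, had no event at any member.

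The letters at the 534 sites were compared with those 10 kb to the side, in windows of 101 bases. TAAT was in 68.9% of member sites, against 72.4% of all sites in the genome and 50.4% at the side positions of the members. TTTAT was in 60.3%, against 61.2% and 31.6%. TTTAC was in 30.1%, against 30.3% of all sites, and TGATTTAT in 2.43%, against 3.35% of all sites and 0.936% at the side positions. The classes differed in TTTAT: it was in 40 of 58 member sites with HOXC9 alone (69.0%, interval 56.2 to 79.4) and in 15 of 36 with limb-level factors alone (41.7%, interval 27.1 to 57.8), where the side positions had 39.7% and 36.1%. Over the genome these shares were 71.6% and 34.8%. TAAT was in 81.0% (interval 69.1 to 89.1) and 69.4% (interval 53.1 to 82.0) of the same 2 classes, and these intervals overlap. Over the genome these shares were 74.9% and 72.9%, and the side positions of the members had 56.9% and 50.0%. TGATTTAT was in 5 of the 61 shared sites, 1 of 58 with HOXC9 alone and 0 of 36 with limb-level factors alone, which allows up to 9.64%. Over the genome it was in 6.36%, 5.87% and 2.57% of these classes. Sites of 1 locus share its base composition, and a match is a description of the letters and not evidence of contact.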

How the data were processed

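ChIP-seq of HOX factors, chimeras, MEIS and PBX was analysed from the event list of each condition. Per the labels and the study's methods, the authors aligned reads to mm10 with Bowtie 1.0.1 and called events with MultiGPS over the pooled libraries of a condition against a control. Picard 2.8.2 and edgeR 3.22.5 are also in the submitters' processing notes. The deposited lists give the estimated counts of ChIP and scaled control reads at each event, their log2 fold and the log2 of the q-value, which was at most 0.001. Columns in which the authors compared conditions with edgeR were not used, nor were the position tracks and the 2 control samples.

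Events were placed on GENCODE M21 genes with Python 3.11.15 and pandas 2.3.3, and merged within 100 bp. They were ranked within each list by q-value, with ties by estimated ChIP reads. Letters were searched in 101 bases of GRCm38. Named sites were, for each gene, the best-ranked HOXC9 site, the best-ranked limb-level site and the sites with all 7 full-length factors. Not all of these sites are reported here. Shares were given Wilson intervals, and differences of shares Newcombe intervals, which treat sites as independent. The Newcombe form was that for independent samples, although both shares of a difference came from the same sites. The pairing by site was not used. Pooled lists allow no test between replicates. Merging and sharing were tested on simulated lists. The alternatives changed list length, merge distance, flank, q-value, the limb-level lists and the motif window. The members and lists were chosen with earlier results of these data known.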

Additional observations from a re-analysis of the deposited data

How the results depend on the processing

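No paired analysis was possible because each list pools its libraries, and for the same reason no replicate could be left out. Of 84 alternatives to 14 shares or differences, 57 kept their sign within the 95% interval of the reported value and 20 left it. Another 7 were differences that changed sign, counted whether or not they left the interval. Those that left it include motif windows of 25 and 100 bp, which hold fewer or more matches by their size. With lists of equal length, HOXC9 alone was at 11.7% of sites and limb-level factors alone at 50.0%, and the day 4 shares with a day 3 event were 85.7% for HOXC6 and 66.7% for HOXC9. The HOXC13 minus HOXC10 differences were then -15.2 points for HOXC13:C10.1, -53.5 for HOXC13:C10.2, -11.1 for HOXC10:C13.1 and 3.70 for HOXC10:C13.2, against 14.4, 2.05, 45.5 and 48.8 with full lists. In the top 10000 events the class shares were 16.2% and 45.9%, both stage shares 73.3%, and the chimera differences -35.3, -65.0, -12.5 and 0. Merging within 50 bp gave -1.35 for HOXC13:C10.2, a change of sign inside its interval of -8.87 to 12.9. Without HOXC8 the class shares were 52.3% and 8.46%, and without HOXC10 the HOXC9 share was 48.7%. Motif windows of 25 bp to each side held TAAT at 51.1%, TTTAT at 42.5%, TTTAC at 17.2% and TGATTTAT at 1.31%, and those of 100 bp held the first 3 at 86.0%, 75.8% and 46.8%.

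By gene, HOXC9-only minus limb-only sites changed sign with lists of equal length at Etv4 (-1), Pou3f1 (-2), Mecom (-7), Bmp5 (-2) and Zeb2 (-7), in the top 10000 at Pou3f1 (-1) and Mecom (-6), and with 100 kb flanks at Etv1 (2). Beyond list length, the cause of these changes was not tested. The limb-level class joined 3 lists at every length, against the HOXC9 list alone. The share of day 4 HOXC10 sites with a day 3 event and the MEIS difference stayed within their intervals under every alternative run for them. Depth was lowest in a day 3 HOXC10 library (5.04 M reads) and in the day 4 control (4.72 M).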
